A study of Mus musculus with 12 samples.

Results

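The 9 genes described here encode proteins that coat lipid droplets or help to build them: Plin2, Plin3, Plin4, Plin5, Cidec, Bscl2, Fitm1, Fitm2 and Hilpda. They were chosen by symbol from the 53431 gene identifiers of the count table, and all 9 were found in it and passed the filter on low counts. Messenger RNA of mouse adipose tissue, from an unnamed depot, was sequenced in 3 groups of 4 libraries, all on a mixed C57BL/6 x 129/SvJ background and collected at 6 months of age. The first group was wild type (WT) without treatment and the second was Bbs2-/- without treatment. The third was Bbs2-/- with Genz667161, an inhibitor of glucosylceramide synthase (GCS), at 0.033% of the feed by weight from 2 to 6 months of age. The BBSome, to which the Bbs2 protein belongs, moves membrane proteins at the primary cilium, and loss of Bbs2 is a mouse model of Bardet-Biedl syndrome, in which obesity is a feature. The allele is not described in the labels, and the series has no WT group with the inhibitor, so an effect of the inhibitor in WT was not measured. The labels do not say that the libraries came from separate mice, so the spread behind each p-value is that of libraries and may in part be technical.

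A lipid droplet is a store of neutral lipid in a single layer of phospholipid, and it grows out of the endoplasmic reticulum. Perilipins coat its surface and govern the access of lipases. Plin1 and Plin4 are perilipins of adipocytes, Plin5 is one of oxidative tissues such as heart and muscle, and Plin2 and Plin3 occur in most cell types, with Plin2 prominent in lipid-laden macrophages. Cidec (also called Fsp27) passes lipid from smaller to larger droplets and is needed for the single large droplet of a white adipocyte. Bscl2 (seipin) shapes the site at which droplets form, Fitm1 and Fitm2 act in the endoplasmic reticulum during droplet formation, and Hilpda inhibits the lipase encoded by Pnpla2 and is known as a gene induced by low oxygen.

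Plin4, Plin5 and Plin3 lie on the minus strand of chromosome 17, where Plin4 (17:56100591-56109803) and Plin5 (17:56111601-56117596) are 1797 bases apart and Plin3 lies at 17:56277476-56292873. Plin2 lies at 4:86648386-86670060, Cidec at 6:113424634-113435760, Bscl2 at 19:8837467-8848683, Fitm1 at 14:55575617-55576954, Fitm2 at 2:163466379-163472629 and Hilpda at 6:29272488-29275446, in GENCODE M21 on mm10. The promoters of Plin2, Plin4 and Cidec are shown because Plin2 rose where the other 2 fell, as described below. They are RefSeq windows on GRCm38.p6, minus strand, written 5′ to 3′. They span chr4:86670050-86670309, which ends 10 bases past the RefSeq start, chr17:56109804-56110032 and chr6:113435761-113436010. Capitals mark CACGTG, the E-box read by transcription factors such as TFEB, USF and MYC.
Plin2: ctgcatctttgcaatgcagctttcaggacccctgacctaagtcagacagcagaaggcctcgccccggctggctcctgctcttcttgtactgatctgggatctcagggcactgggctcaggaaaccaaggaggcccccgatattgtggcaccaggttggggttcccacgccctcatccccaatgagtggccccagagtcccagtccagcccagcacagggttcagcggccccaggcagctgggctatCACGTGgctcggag
Plin4: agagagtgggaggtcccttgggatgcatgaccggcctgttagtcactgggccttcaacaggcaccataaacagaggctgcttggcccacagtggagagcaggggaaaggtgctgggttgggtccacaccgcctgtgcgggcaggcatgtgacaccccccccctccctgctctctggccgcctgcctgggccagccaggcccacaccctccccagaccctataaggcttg
Cidec: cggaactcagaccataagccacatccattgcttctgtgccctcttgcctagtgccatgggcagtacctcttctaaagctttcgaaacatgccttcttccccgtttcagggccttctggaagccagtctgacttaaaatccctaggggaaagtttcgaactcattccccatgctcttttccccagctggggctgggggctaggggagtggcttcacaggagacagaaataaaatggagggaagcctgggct
The CACGTG of Plin2 begins 4 bases before the RefSeq start and spans it. Motifs were searched in whole RefSeq windows, which run 250 bases before to 50 after a start, so they extend past the stretches printed here. CACGTG reads the same on both strands and occurs in 1 of the 14 windows of the 9 genes, against 7.15% of all 32851 such windows. Its letters after the first, ACGTG, are the core of the hypoxia response element. They occur on either strand in 2 of the 14 windows, of Hilpda and Plin2, against 19.6% of all windows. Every CACGTG holds ACGTG, so the Plin2 window counts in both searches. The DR1 element to which PPAR and RXR bind, searched as 2 copies of AGGTCA 1 base apart, was found on neither strand in the 14 windows and in 0.0396% of all windows. These matches describe letters, not binding, and a missing match says only that the letters are not in that window.

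The libraries held between 16317865 and 20224200 estimated counts. Bbs2 RNA was higher in the libraries labelled Bbs2-/-. Its mean was 12.5 CPM (counts per 1e6 counts of the scaled library) in WT, 61.9 CPM in the untreated and 61.5 CPM in the treated Bbs2-/- group. A genotype label gives no RNA level and the allele is not described, and the reason was not tested. The groups are called WT-labelled, untreated-labelled and treated-labelled below, and each direction rests on the labels. White adipocyte markers were present throughout: the summed CPM of 13 white adipocyte genes was at least 21806 in every library. Library WT 1 stands apart: it held 19876 counts of the epididymal gene Crisp1, against at most 5 elsewhere, and 239 counts of the muscle gene Ckm, against at most 3. Counts of Foxj1, a ciliated epithelium gene, were 48 and 164 in WT 1 and 4, 154 and 140 in treated 1 and 3, and no more than 2 in the rest.

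In the untreated-labelled against the WT-labelled libraries, Plin2 rose and Plin4, Cidec, Fitm2 and Bscl2 fell, while Plin3, Plin5, Hilpda and Fitm1 did not pass the test. That is 5 of the 9 genes at an edgeR adjusted p under 0.05, 1 up and 4 down, where 39.2% of the 15968 genes tested were called, 19.6% up and 19.7% down. In the treated-labelled against the untreated-labelled libraries, Plin4, Cidec, Fitm2 and Bscl2 rose and Plin2 fell, again 5 of 9, where 37.2% of all genes were called, 18.5% up and 18.8% down. The ranges of the 2 groups did not overlap for 4 of the 9 in the first comparison (Plin2, Plin4, Cidec and Fitm2) and for these and Bscl2 in the second, against 36.7% and 39.7% of all genes. Both comparisons use the same untreated-labelled libraries. None of the 9 was called in treated-labelled against WT-labelled libraries by edgeR, by DESeq2 or by limma-voom, none had ranges apart, and 1 (Plin2) had an unadjusted p under 0.05. The share of all genes called there was 0.257%, and 1697 genes had an unadjusted p under 0.05. The median log2 fold change of the 9 genes was 0.14, 0.33 and 0.02 in the 3 comparisons, against -0.02, 0.03 and -0.02 over all genes tested.

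**Figure D1:**
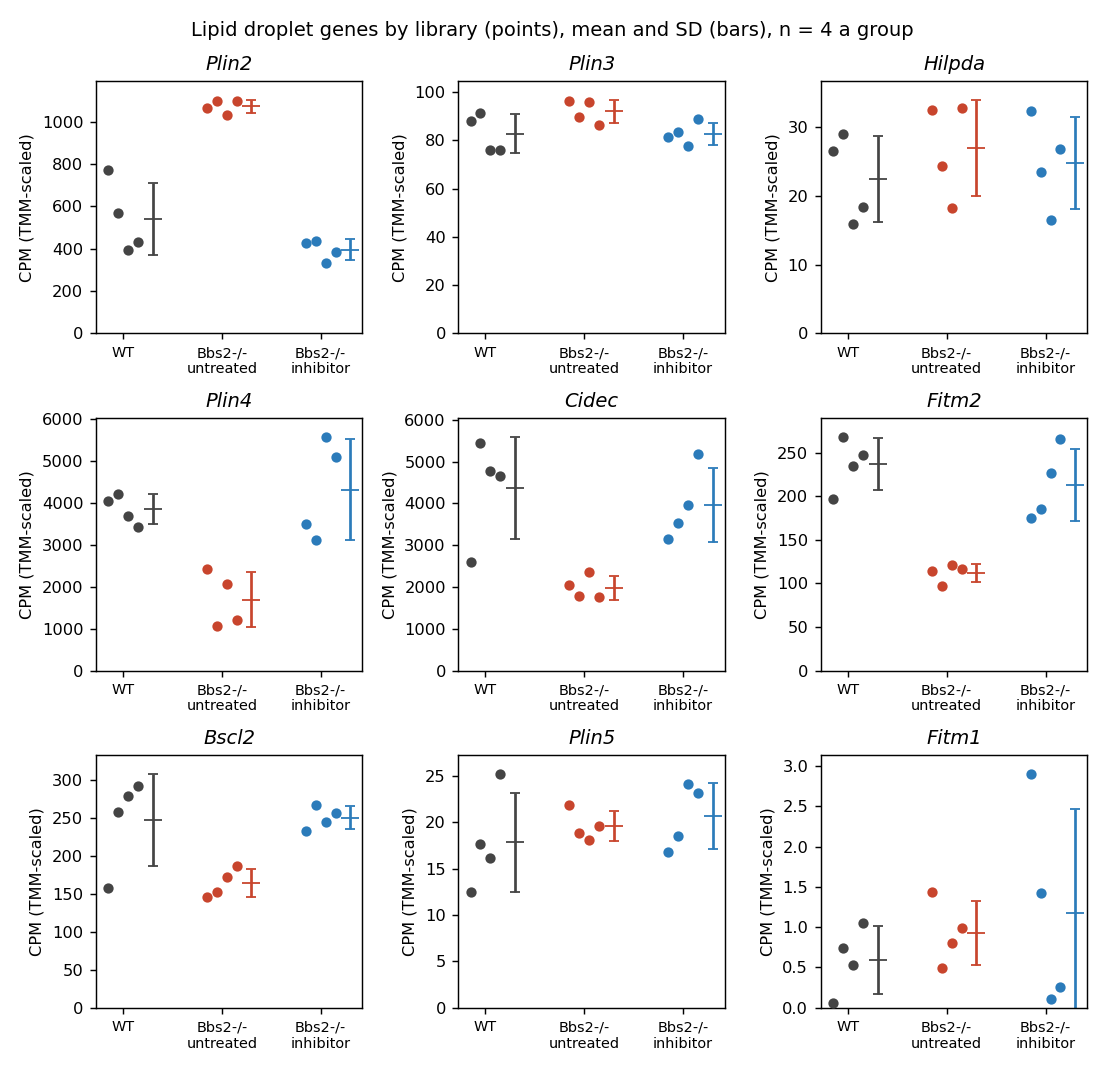
CPM of each of the 9 genes (y axis, from 0) in the 3 groups (x axis); points are libraries and bars beside them the mean and SD of 4 libraries, with bars cut at 0 for Fitm1. Plin2 is highest in the 4 untreated-labelled libraries, and Plin4, Cidec and Fitm2 are lowest there.

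**Figure D2:**
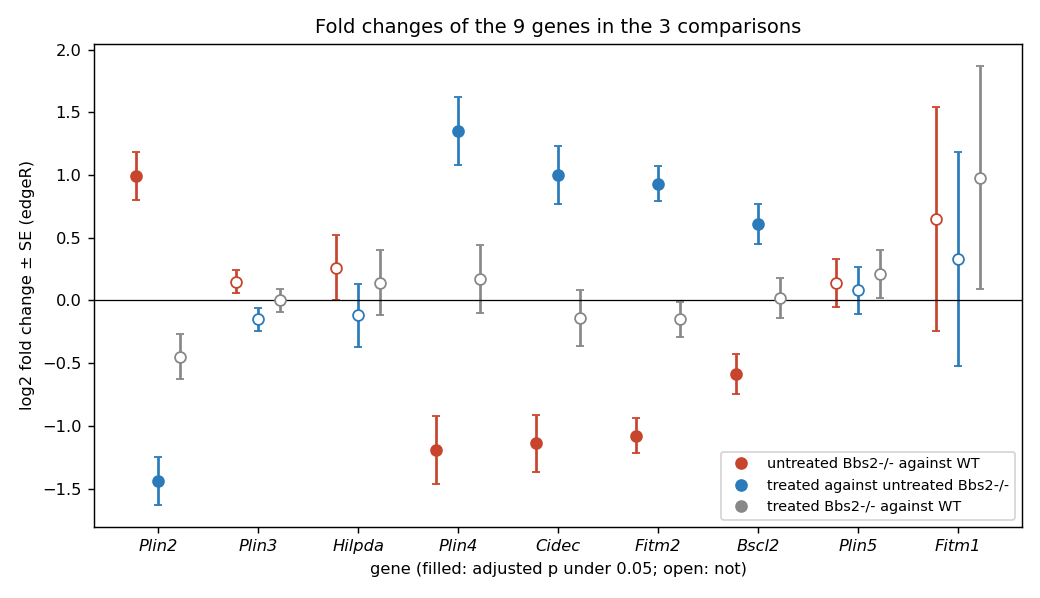
Log2 fold change (y axis) of each gene (x axis) with its standard error from edgeR in 3 comparisons, shown by colour; filled points have an adjusted p under 0.05. Plin2 lies opposite to Plin4, Cidec, Fitm2 and Bscl2 in the first 2 comparisons, and no gene has a filled point for treated-labelled against WT-labelled libraries.

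Among the coat genes of many cell types, Plin2 was the one that changed. Its level was 770, 569, 393 and 432 CPM in WT 1 to 4. It was 1065, 1098, 1032 and 1096 CPM in the untreated-labelled libraries. It was 428, 439, 333 and 386 CPM in the treated-labelled libraries. All 4 untreated-labelled libraries were above every other library, and they lay close together, with a mean of 1072 CPM ± 31.1 (SD, n = 4) against 541 CPM ± 171 (SD, n = 4) in WT and 396 CPM ± 48.3 (SD, n = 4) with the inhibitor. Untreated-labelled against WT-labelled, Plin2 rose by 0.99 ± 0.19 on the log2 scale (SE; edgeR adjusted p = 0.00158). The log2 difference was -1.44 ± 0.19 (SE; edgeR adjusted p = 0.000223) for treated-labelled against untreated-labelled. WT 1 was the highest WT library, and without it the first value was 1.21 (edgeR adjusted p = 8.16e-05). Without WT 2 and 3 that value was 0.84 (edgeR adjusted p = 0.0243). The treated-labelled mean was below the WT mean by a log2 value of -0.45 ± 0.18 (SE; edgeR adjusted p = 0.413), with overlapping ranges, and by -0.23 without WT 1.

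Plin3, the coat protein also known as TIP47, kept within a narrow range. It lay between 75.9 and 91.4 CPM in WT-labelled, 86.5 and 96.3 CPM in untreated-labelled and 77.8 and 88.7 CPM in treated-labelled libraries. The log2 fold changes of 0.15 ± 0.09 and -0.15 ± 0.09 (SE) did not pass the test (edgeR adjusted p = 0.178 and 0.177). With scaling by library size alone both did, at 0.33 (edgeR adjusted p = 0.00897) and -0.28 (edgeR adjusted p = 0.0227), where the median over all genes moved to 0.16 and -0.10. Hilpda ranged from 15.9 to 29 CPM in WT-labelled, 18.2 to 32.8 CPM in untreated-labelled and 16.5 to 32.4 CPM in treated-labelled libraries. Its groups overlapped throughout, with log2 fold changes of 0.26 ± 0.26 (edgeR adjusted p = 0.448) and -0.12 ± 0.25 (edgeR adjusted p = 0.743). Of the 3 ubiquitous or macrophage-type genes, Plin2, Plin3 and Hilpda, 1 rose against WT and 1 fell with the inhibitor, Plin2 in each case. Of all genes tested, 19.6% rose in the first comparison and 18.8% fell in the second.

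Both adipocyte-type genes fell in the untreated-labelled group, where 19.7% of all genes fell, and rose with the inhibitor, where 18.5% rose. Plin4 was at 4045, 4219, 3696 and 3422 CPM in WT 1 to 4. It was at 2420, 1069, 2054 and 1214 CPM in the untreated-labelled libraries and at 3506, 3104, 5573 and 5089 CPM in the treated-labelled libraries. No untreated-labelled library reached the lowest of the other 8, and within the untreated-labelled group libraries 1 and 3 stood above 2 and 4. The means were 3846 CPM ± 356, 1689 CPM ± 653 and 4318 CPM ± 1197 (SD, n = 4 each). The log2 fold changes were -1.19 ± 0.27 (SE; edgeR adjusted p = 0.0047) against WT and 1.35 ± 0.27 (SE; edgeR adjusted p = 0.00237) with the inhibitor. Without WT 2 and 3 the first was -1.13 (edgeR adjusted p = 0.0417). Plin4 shares exon sequence with Hdgfl2 on the other strand, which had 322 to 653 counts a library against at least 21648 of Plin4.

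Cidec was at 2605, 5432, 4781 and 4646 CPM in WT 1 to 4. It was at 2042, 1773, 2368 and 1750 CPM in the untreated-labelled libraries and at 3153, 3535, 3958 and 5185 CPM in the treated-labelled libraries. WT 1 was the lowest of the WT and treated-labelled libraries and still above the highest untreated-labelled one. The means were 4366 CPM ± 1223, 1983 CPM ± 289 and 3958 CPM ± 882 (SD, n = 4 each). The log2 fold changes were -1.14 ± 0.23 (SE; edgeR adjusted p = 0.00226) against WT and 1.0 ± 0.23 (SE; edgeR adjusted p = 0.00496) with the inhibitor. Without WT 1 the first was -1.32 (edgeR adjusted p = 0.000176), and without WT 2 and 3 it was -0.86 (edgeR adjusted p = 0.0409).

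Plin1, the main lipase-gating perilipin of adipocytes, and Cidea, the relative of Cidec in brown fat, were set beside them as the nearest adipocyte genes. Plin1 ranged from 1455 to 2004 CPM in WT-labelled, 662 to 956 CPM in untreated-labelled and 1457 to 2593 CPM in treated-labelled libraries, so the untreated-labelled range lay apart. Its log2 fold changes were -1.19 ± 0.20 (edgeR adjusted p = 0.000753) and 1.27 ± 0.20 (edgeR adjusted p = 0.000528). Cidea was at 12.4, 13.8, 22.3 and 20.7 CPM in WT 1 to 4, at 9.9, 4.4, 5.49 and 5.48 CPM in the untreated-labelled and at 8.85, 5.88, 6.72 and 5.09 CPM in the treated-labelled libraries. Cidea fell by 1.45 ± 0.28 on the log2 scale against WT (edgeR adjusted p = 0.00195), and the change with the inhibitor was 0.07 ± 0.28 (edgeR adjusted p = 0.863). The treated-labelled libraries all lay below the WT libraries, with a log2 fold change of -1.38 ± 0.28 that did not pass the test (edgeR adjusted p = 0.0817). Non-overlapping ranges occurred in 4.89% of all genes in that comparison.

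Of the genes that act in the endoplasmic reticulum, Fitm2 and Bscl2 changed and Fitm1 was near the limit of detection. Fitm2 was at 197, 268, 235 and 247 CPM in WT 1 to 4. It was at 114, 96.8, 121 and 116 CPM in the untreated-labelled and at 175, 185, 226 and 266 CPM in the treated-labelled libraries. The untreated-labelled libraries lay below all 8 others. The means were 237 CPM ± 29.7, 112 CPM ± 10.6 and 213 CPM ± 42 (SD, n = 4 each). The log2 fold changes were -1.08 ± 0.14 (SE; edgeR adjusted p = 0.000235) and 0.93 ± 0.14 (SE; edgeR adjusted p = 0.000541). An antisense gene across its start, 2310001K24Rik, had 1 to 16 counts a library.

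Bscl2 was at 158, 258, 279 and 292 CPM in WT 1 to 4. It was at 146, 152, 172 and 186 CPM in the untreated-labelled and at 232, 267, 245 and 256 CPM in the treated-labelled libraries. WT 1 lay among the untreated-labelled libraries, so those 2 ranges overlapped, while the treated-labelled range stood above the untreated-labelled one. The log2 fold changes were -0.59 ± 0.16 (SE; edgeR adjusted p = 0.0142) and 0.61 ± 0.16 (SE; edgeR adjusted p = 0.0127). The fall against WT was -0.75 (edgeR adjusted p = 0.000165) without WT 1. It was not called without untreated 2 (-0.52, edgeR adjusted p = 0.0539), without WT 2 and 3 (-0.44, edgeR adjusted p = 0.15) or with scaling by library size alone (-0.39, edgeR adjusted p = 0.0554). Bscl2 shares exon sequence with Gng3 on the other strand, which had 6 to 40 counts, and with a read-through gene on its own strand.

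Plin5 lay between 12.5 and 25.2 CPM in WT-labelled, 18.1 and 21.9 CPM in untreated-labelled and 16.8 and 24.1 CPM in treated-labelled libraries. Its log2 fold changes of 0.14 ± 0.19 and 0.08 ± 0.19 (SE) did not pass the test (edgeR adjusted p = 0.606 and 0.782), although Plin4 on the same strand beside it changed in both comparisons. Fitm1, the FIT protein of muscle, had 1, 11, 8 and 18 counts in WT 1 to 4, 28, 10, 16 and 21 in the untreated-labelled and 56, 26, 2 and 5 in the treated-labelled libraries. Its log2 fold changes of 0.65 ± 0.89 and 0.33 ± 0.85 (SE; edgeR adjusted p = 0.596 and 0.793) were smaller than their standard errors, and at these low counts the 4 treated-labelled libraries alone spread from 2 to 56. Fitm1 shares exon sequence with an antisense gene, Gm15932, which had 0 to 5 counts a library.

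On the deposited log2(FPKM + 1) scale, which is per length, levels can be set in order between genes. In WT-labelled libraries the order of mean levels was Cidec 11.42 ± 0.47, Plin4 9.53 ± 0.14, Plin1 9.51 ± 0.18, Plin2 8.27 ± 0.44, Bscl2 7.57 ± 0.40, Fitm2 6.06 ± 0.18, Plin3 4.71 ± 0.13, Hilpda 4.68 ± 0.40, Cidea 4.09 ± 0.40, Plin5 3.42 ± 0.38 and Fitm1 0.70 ± 0.45 (SD, n = 4). Plin4 and Plin1 had overlapping ranges, as did Plin3 with Hilpda, Hilpda with Cidea and Cidea with Plin5. In untreated-labelled libraries Plin2, at 9.23 ± 0.04, stood second after Cidec at 10.25 ± 0.21 and above Plin1 at 8.24 ± 0.27 and Plin4 at 8.19 ± 0.56, with ranges apart from its neighbours in the order. Fitm2 at 4.94 ± 0.14, Hilpda at 4.86 ± 0.38 and Plin3 at 4.78 ± 0.07 overlapped there. In treated-labelled libraries Plin2 was again below Plin1 and Plin4, at 7.84 ± 0.17, and its range overlapped that of Bscl2 at 7.61 ± 0.10. The order depends on the length used for Bscl2 and Plin2: with counts divided by the merged exon length, the mean log2 level in WT was 5.38 for Bscl2, below Fitm2 at 5.92, and 7.23 for Plin2. In untreated-labelled libraries it was 8.26 for Plin2 beside 8.11 for Plin4, and 4.84 for Bscl2 beside 4.87 for Fitm2.

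**Figure D3:**
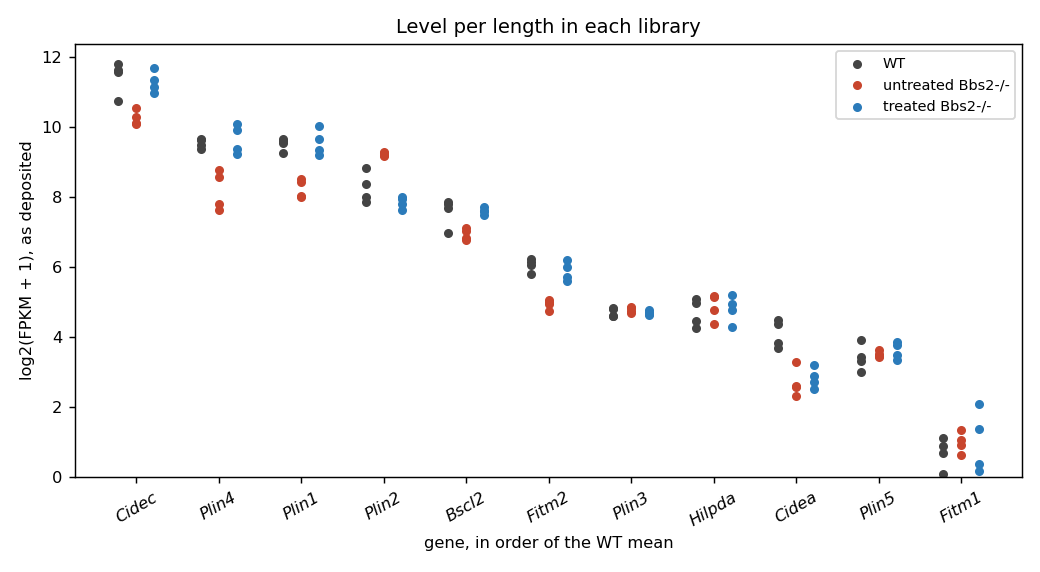
Deposited log2(FPKM + 1) values (y axis) of the 9 genes with Plin1 and Cidea (x axis, by WT mean), 1 point a library, coloured by group. Cidec is highest in each group and Fitm1 lowest, and Plin2 lies above Plin1 and Plin4 in the untreated-labelled libraries alone.

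The make-up of the perilipin transcripts was taken as the share of each gene in the summed FPKM of Plin1 to Plin5 in a library. Plin2 made up 24.2, 16.8, 13.5 and 14.7% in WT 1 to 4, 41, 55.5, 43.3 and 54.4% in the untreated-labelled and 15.5, 17.4, 9.3 and 9.81% in the treated-labelled libraries. The untreated-labelled libraries were thus above all others, with a mean of 48.6% ± 7.46 (SD, n = 4) against 17.3% ± 4.81 and 13% ± 4.04. Plin4 made up 40.6% ± 1.66, 24.1% ± 6.3 and 43.9% ± 4.94 (SD, n = 4), and Plin1 40.2% ± 5.59, 24.4% ± 1.5 and 41.2% ± 3.47. Plin3 and Plin5 stayed small, at means of 1.38, 2.14 and 1.38% for Plin3 and 0.551, 0.838 and 0.619% for Plin5. The summed FPKM itself was 1825 ± 131, 1249 ± 159 and 1854 ± 380 (SD, n = 4), lowest in the untreated-labelled group. On the deposited scale Plin2 was above Plin4 in 4 of 4 untreated-labelled libraries and in 0 of 4 of each other group. With counts divided by the merged exon length in place of the authors' length, this held in 2 of 4 untreated-labelled libraries and 0 of 4 of each other group, and the Plin2 share was 12.4, 39.1 and 9.16%. No test was run on these shares.

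**Figure D4:**
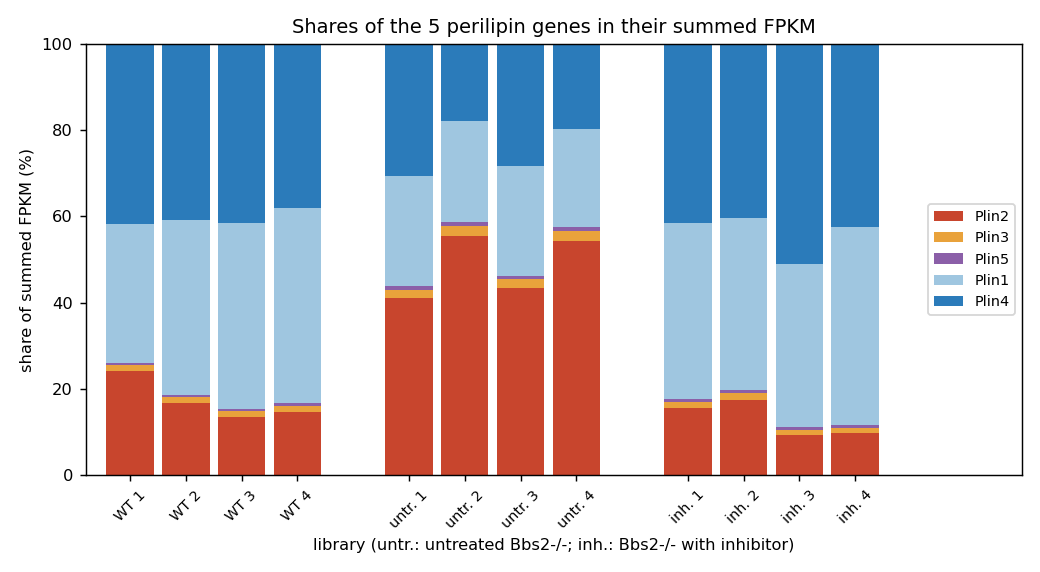
Share of each perilipin gene (colour) in the summed FPKM of Plin1 to Plin5 (y axis, percent), 1 bar a library (x axis). Plin2 takes 41 to 55.5% in the untreated-labelled libraries and at most 24.2% in the others.

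Macrophage and white adipocyte markers moved with the same groups. The summed CPM of 16 macrophage genes was 920 to 3924 in WT-labelled, 8120 to 11470 in untreated-labelled and 835 to 2210 in treated-labelled libraries. Of these 16 genes 13 rose against WT, where 19.6% of all genes rose, and 15 fell with the inhibitor, where 18.8% of all genes fell, and none was at 0 in a whole group. WT 1 had the highest sum of the WT libraries, 3924, and the highest Plin2. Single macrophage markers differed there: Adgre1 was at 170 CPM in WT 1 and at most 33.7 CPM in the other WT libraries. C1qa was at 114 CPM in WT 1 against 134 CPM in WT 4, and Trem2 at 99.9 CPM against 104 CPM in WT 2. The summed CPM of 13 white adipocyte genes was 33488 to 55550, 21806 to 25358 and 36753 to 50476, with 10 falling against WT and 12 rising with the inhibitor, where 19.7% of all genes fell and 18.5% rose. WT 1 had the lowest sum of the WT libraries, 33488, and the lowest Cidec, Fitm2 and Bscl2. Plin4 did not follow there: it was at 4045 CPM in WT 1, within 3422 to 4219 CPM over the WT libraries. The summed CPM of 10 brown or beige adipocyte genes, Cidea among them, was 74.9 to 98.9, 48.2 to 65.8 and 66.4 to 74.9. Muscle markers summed to 58.6 to 113, 29.8 to 44.4 and 44 to 58.1 CPM, ciliated epithelium markers to 7.83 to 53.1, 5.57 to 9.39 and 4.98 to 36.3 CPM, and epididymal markers to at most 0.449 CPM outside the WT group. The muscle genes did not move together: of 8 tested, 3 rose and 3 fell against WT, and 1 rose and 2 fell with the inhibitor. The shares of all genes called there were 39.2% and 37.2%. In bulk tissue, fewer cells of a type and less RNA per cell cannot be told apart, and the part of these markers in the changes of the 9 genes was not tested. Without the 4 libraries that hold Foxj1, WT 1 among them, the same numbers of the 9 genes were called, 1 up and 4 down against WT and 4 up and 1 down with the inhibitor.

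**Figure D5:**
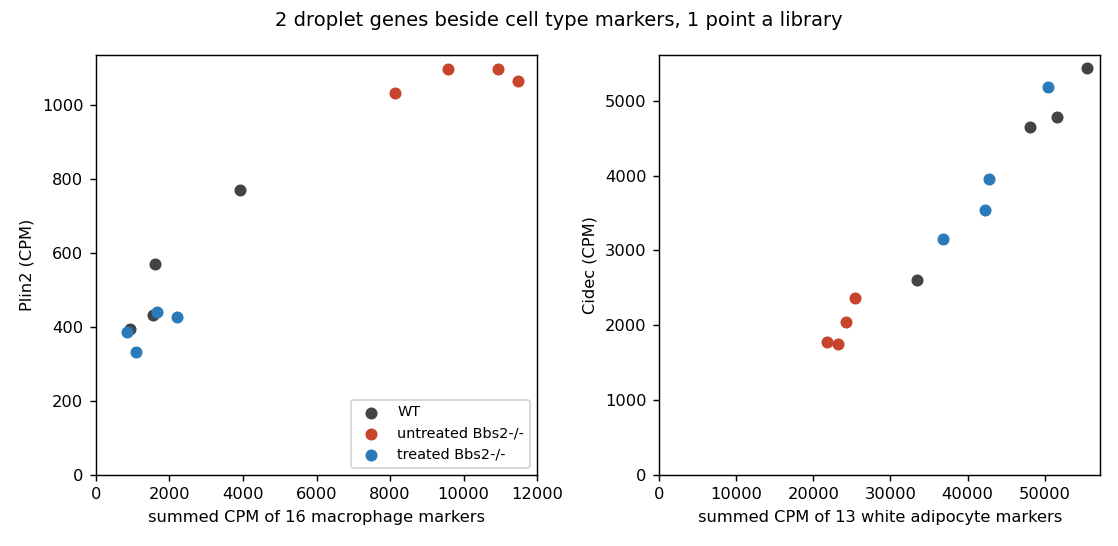
Plin2 CPM against the summed CPM of 16 macrophage genes (left) and Cidec CPM against that of 13 white adipocyte genes (right), 1 point a library, coloured by group. The untreated-labelled libraries lie apart on both axes, with macrophage sums of at least 8120 and adipocyte sums of at most 25358, and WT 1 lies nearest to them among the WT libraries.

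Of the wider set of 35 lipid droplet genes besides the 9, 14 fell and 6 rose against WT, where 19.7% of all genes tested fell and 19.6% rose. With the inhibitor 15 rose and 8 fell, where 18.5% of all genes rose and 18.8% fell. The list's median log2 fold change was -0.49 and 0.39 in these comparisons and -0.03 for treated-labelled against WT-labelled libraries, against -0.02, 0.03 and -0.02 over all genes tested. Lipe, Pnpla2, Mgll and G0s2, which act in lipolysis, each fell against WT and rose with the inhibitor. They are among the genes of smallest p in the list. Abhd5 and Pnpla3, also in the list, were not called in either comparison (edgeR adjusted p = 0.317 and 0.835 for Abhd5, 0.205 and 0.0591 for Pnpla3). Lipe (hormone-sensitive lipase) was at a mean of 2194 CPM in WT-labelled, 780 CPM in untreated-labelled and 2057 CPM in treated-labelled libraries, with log2 fold changes of -1.49 ± 0.18 and 1.40 ± 0.18 (edgeR adjusted p = 0.000158 and 0.000197). Pnpla2 (adipose triglyceride lipase) had -1.64 ± 0.26 and 1.06 ± 0.25 (edgeR adjusted p = 0.000573 and 0.00669), and Mgll (monoglyceride lipase) -1.13 ± 0.17 and 0.87 ± 0.17 (edgeR adjusted p = 0.000438 and 0.00186). G0s2, an inhibitor of the Pnpla2 lipase, had -0.63 ± 0.23 and 1.33 ± 0.23 (edgeR adjusted p = 0.0449 and 0.00102). Dgat2, which adds the last acyl chain of a triglyceride, had -0.49 ± 0.13 and 0.96 ± 0.13 (edgeR adjusted p = 0.00985 and 0.000255), and Gpat4, which adds the first, -0.70 ± 0.12 and 0.88 ± 0.12 (edgeR adjusted p = 0.000958 and 0.00029).

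Lpcat2, Lpcat1, Soat1, Nceh1 and Pcyt1a rose against WT and fell with the inhibitor, as Plin2 did. The changes of Pcyt1a were small, at 0.33 ± 0.12 and -0.44 ± 0.12 (edgeR adjusted p = 0.0432 and 0.0136). Acsl3 also rose against WT (0.66 ± 0.20, edgeR adjusted p = 0.0217), but its fall with the inhibitor was not called (-0.47 ± 0.20, edgeR adjusted p = 0.0867). Lpcat2, a lysophosphatidylcholine acyltransferase of inflammatory cells, had log2 fold changes of 1.91 ± 0.25 and -1.77 ± 0.25 (edgeR adjusted p = 0.000227 and 0.000333), and Lpcat1 had 0.99 ± 0.13 and -0.66 ± 0.13 (edgeR adjusted p = 0.000229 and 0.00212). Soat1, which esterifies cholesterol, and Nceh1, which hydrolyses cholesterol esters, were named after their values were seen, for the size of their changes. Soat1 was at a mean of 28.3, 127 and 16.8 CPM in the WT-labelled, untreated-labelled and treated-labelled libraries, with log2 fold changes of 2.17 ± 0.50 and -2.92 ± 0.51 (edgeR adjusted p = 0.00553 and 0.00133). Nceh1 was at 24.8, 112 and 11.8 CPM, with 2.17 ± 0.63 and -3.25 ± 0.66 (edgeR adjusted p = 0.018 and 0.00311). The macrophage marker sums given above were also high in the untreated-labelled libraries, and a link between them and these genes was not tested.

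Targets of the hypoxia-inducible factors (HIF) were counted because Hilpda is one of them. Of 13 tested genes of 14 listed, 1 rose and 5 fell against WT, and 5 rose and 3 fell with the inhibitor, where 39.2% and 37.2% of all genes were called. Vegfa, an angiogenic factor also made by adipocytes, was at a mean of 315, 109 and 320 CPM, with log2 fold changes of -1.53 ± 0.25 and 1.55 ± 0.25 (edgeR adjusted p = 0.000694 and 0.000655). Slc2a1, the glucose transporter GLUT1, rose by 0.70 ± 0.20 and fell by 0.58 ± 0.20 on the log2 scale (edgeR adjusted p = 0.0172 and 0.0398). Hilpda was not called in any comparison. Targets of the PPAR receptors were counted because Plin2, Plin4, Plin5 and Cidec are known to be among them. Of 15 genes, 1 rose and 7 fell against WT, and 4 rose and 2 fell with the inhibitor, beside the same shares of all genes, 39.2% and 37.2%. Ehhadh, an enzyme of peroxisomal fat oxidation, had -1.51 ± 0.18 and 1.25 ± 0.18 (edgeR adjusted p = 0.000168 and 0.000407), whereas Cpt1a, the mitochondrial entry step, had 0.71 ± 0.15 and -0.55 ± 0.15 (edgeR adjusted p = 0.00316 and 0.0135). Pdk4, an inhibitor of pyruvate oxidation, was the 1 gene of the list called between treated-labelled and WT-labelled libraries. Its mean was 41.3 against 135 CPM, with a log2 fold change of -1.71 ± 0.26 (edgeR adjusted p = 0.0284). Pdk4 was also lower without the inhibitor, at 55.7 CPM in untreated-labelled libraries (-1.28 ± 0.26 against WT, edgeR adjusted p = 0.00279). Its change with the inhibitor was not called (-0.43 ± 0.26, edgeR adjusted p = 0.21).

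For each of the 9 genes, the 2 protein-coding genes whose log2 CPM followed it most closely over the 12 libraries were found by Pearson's r, which the differences between groups enter as well as those within them. They were Tldc1 and Mfsd1 for Plin2 (r = 0.99 each), Nudt12 and Aox1 for Plin4 (0.97 and 0.96), D10Jhu81e and Apmap for Cidec (0.99 and 0.98), Smoc1 and Parn for Fitm2 (0.99 each) and Rnf167 and Ramp2 for Bscl2 (0.97 each). For genes without a called change the nearest r was lower: 0.87 for Stau2 and Ell2 beside Plin3, 0.82 and 0.81 for Psma1 and Sik1 beside Plin5, 0.83 for Pitpnm1 and Csnk1d beside Hilpda, and 0.88 and 0.86 for Gorasp2 and D130040H23Rik beside Fitm1. These are the highest of all tested protein-coding genes and carry no test.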

How the data were processed

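Adipose tissue messenger RNA was sequenced from 12 libraries made with a stranded kit, per the labels' protocols. The authors deposited estimated counts per gene without scaling, of which 82.7 to 84.7% of the nonzero values in a library were whole within 1e-06. They also deposited log2 FPKM values for 18810 genes, whose upper quartile was 3.96 throughout. An offset of 1 matched 79.6% of genes with at least 20 counts within 0.02, and an offset of 0 matched 38.3%. Per the submitters' processing notes, reads were placed on mm10. Overlapping genes are uncertain, since the strand setting, like the aligner, counter and annotation, is not given in the sources used here.

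Symbols came from GENCODE M21, which matched 52207 of 53431 identifiers. Rounded counts were tested with edgeR 4.0.16 (R 4.3.3) by TMM scaling, filterByExpr and the robust quasi-likelihood test, with all 12 libraries in 1 fit. P-values were adjusted by Benjamini-Hochberg over 15968 genes at a threshold of 0.05, and standard errors are the fold change over the root of F. CPM uses the TMM-scaled library size. Alternatives included DESeq2 1.42.0, limma 3.58.1, other scalings and filters, and leaving out libraries. In simulated counts 200 genes were given known changes of 1.5, 2 or 4-fold. The test recovered 22.4, 49.3 and 71.2% of these for untreated Bbs2-/- against WT over 15968 genes. It recovered 11.9, 47.8 and 72.7% for treated against untreated Bbs2-/- and 14.9, 50.7 and 72.7% for treated Bbs2-/- against WT, each over 15967 genes. In the first 2 real comparisons 6263 and 5947 genes were called, so the adjusted threshold differed and these shares do not measure recovery there. Libraries of a group differed by a chi-square of at least 16.9 per degree of freedom, so none repeated another. The 9 genes, the lists and the alternatives were chosen with earlier results of these data known. All 9 genes, Plin1 and Cidea were named, with up to 6 genes of smallest p per list and comparison and the 2 nearest genes of each. Soat1, Nceh1, Abhd5, Pnpla3, Pcyt1a, Acsl3, Adgre1, C1qa and Trem2 fall outside that rule and were named after their values were seen. Bbs2, Crisp1, Ckm and Foxj1 were named to check the libraries.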

Additional observations from a re-analysis of the deposited data

How the results depend on the processing

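Under 23 alternatives, Plin2, Plin4, Cidec and Fitm2 kept their direction and their call against WT and with the inhibitor, as Bscl2 did with the inhibitor, and none of the 9 genes was called between treated and WT under any of them. Bscl2 against WT was called under 20 of 23, as given above, and Plin3 under scaling by library size alone. That scaling moved the share of called genes that were higher from 49.9 to 69% against WT and from 49.6 to 35.5% with the inhibitor. Without WT 2 and 3, 3417 genes were called against WT in place of 6263. Between treated and WT, 41 genes were called, and 275 with DESeq2, 2 with the compared groups only, 9 with the replicate block, 1 without WT 2 and 3, 2 without the libraries holding Foxj1 and 3 to 49 when 1 library was left out. That count was 3 without WT 2, 8 and 14 without WT 3 and 4, 17 to 21 without untreated 2, 3 or 4, and 12 and 10 without treated 1 and 2. The causes were not tested.

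Uncalled values changed sign as follows, on the log2 scale. With 1 library left out, Plin3 between treated and WT ranged from -0.04 to 0.05, and it moved from just below 0 to the other side in the settings that follow (0.00 with DESeq2 size factors, DESeq2, limma-voom and the replicate block, 0.01 with the compared groups only, 0.02 with no filter, 0.04 without WT 2 and 3 or without the libraries holding Foxj1, 0.05 with library size alone). Plin5 was 0.00 to 0.35 against WT with 1 library left out (0.00 without WT 1), and with the inhibitor -0.05 with library size alone and -0.01 to 0.18 with 1 left out (-0.01 without treated 3). Fitm1 with the inhibitor was -0.49 with limma-voom, -0.14 without the libraries holding Foxj1 and -0.62 (without treated 1) to 0.71 with 1 left out. Hilpda with the inhibitor was -0.29 to 0.03 (without treated 3). Between treated and WT, Cidec was 0.15 without WT 2 and 3, and Bscl2 was -0.14 (without WT 1) to 0.11 with 1 left out, -0.02 without treated 2 and -0.03 without the libraries holding Foxj1.

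The labels share replicate numbers but do not say that these pair samples, so the main fit holds no block. Deviations of same-numbered libraries correlated at -0.0214 to 0.0164 for untreated against WT, 0.0999 to 0.308 for treated against untreated and -0.149 to 0.278 for treated against WT. With the replicate block 6012, 5680 and 9 genes were called, and the calls of the 9 genes did not change. The SE of Hilpda was 0.15 with the block, against WT and with the inhibitor (edgeR adjusted p = 0.222 and 0.557). For treated against untreated, 3 of 4 libraries in each group correlated best with their own number, and the reason was not tested. Fitm1 rests on 1 to 56 counts a library.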
